A study of Mus musculus with 36 samples.

Results

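Ribosome protected fragments (RPFs) from fraction 5/6 of a sucrose gradient were set against RNA-seq of the whole brain homogenate in WT mice. The members are named by their labels, namely the 3 WT fraction 5/6 RPF libraries and the 3 WT total RNA libraries of the standard preparation, which make up 6 of the 36 libraries of the series. Each preparation pooled 10 brains of 5-day-old C57BL/6 mice, and the brains were homogenized, fractionated and digested with 10 mM MgCl2 and the higher amount of RNase I. Fraction 5/6 holds clusters of ribosomes that enter the gradient without reaching its bottom, whereas the RNA granules are taken from the pellet of the same gradient. The same fraction and RNA from FMR1 KO mice, which lack FMRP, the WT pellet and a low nuclease preparation of WT brain with 2.5 mM MgCl2 served for comparison, each with 3 libraries from pools of 10 brains of the same age. The homogenate held every cell type of the brain, so no result belongs to 1 cell type. After the gene Cdk8 was dropped, 16233 of the 16614 genes in the count table were tested.

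A ribosome shields a short piece of the mRNA it sits on from nuclease, and sequencing those pieces counts ribosomes along mRNAs. The ratio of RPFs to mRNA, called occupancy here, is high where ribosomes are loaded often or where they move slowly or stop. In the developing brain, part of the mRNA is carried toward neurites in clusters of stalled ribosomes, and such clusters contain FMRP, whose loss causes fragile X syndrome. Because the RPFs came from 1 gradient fraction and the RNA from the whole homogenate, ribosomes per mRNA and the share of an mRNA that sediments in this fraction cannot be told apart.

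The 3 RPF libraries held 33212827, 21594932 and 22749693 counts. Cdk8 alone took 50.0%, 59.2% and 46.0% of them, against at most 0.00903% in the RNA-seq libraries. The other genes held 16618125, 8808890 and 12293720 RPF counts and 112240104 to 138287272 counts per RNA-seq library, so low values rest mainly on the shallower RPF libraries. Levels are given as CPM, the usual depth-scaled counts, here with library sizes normalized by TMM to even out the composition of RPF and RNA libraries, so that the CPM of 1 library need not sum to the same total as another's.

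The library labelled WT fraction 5/6 replicate 3 stood apart from the other 2. Fmr1, the gene that is disrupted in FMR1 KO, had 1663 and 604 counts in replicates 1 and 2 and 39 counts in the library labelled replicate 3. The FMR1 KO fraction 5/6 libraries had 58, 90 and 46 Fmr1 counts, so this library lay below all of them. Wdfy1 followed the same pattern with 527, 194 and 21 counts, beside 32, 29 and 20 in the FMR1 KO fraction 5/6 libraries. Across the 16233 genes, its log2 CPM had a Spearman correlation of 0.945 and 0.942 with the other 2 WT fraction 5/6 libraries, of 0.970 to 0.972 with the 3 WT pellet libraries and of up to 0.978 with an FMR1 KO pellet library. Replicates 1 and 2 correlated with each other at 0.956. These correlations are across genes and describe likeness only. List counts and most results it moved are therefore given with this library and without it, and the library is called by its label throughout.

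Of 8244 genes with a mean of at least 10 CPM in the RPFs, 859 (10.4%) were more than 2-fold above the mean of replicates 1 and 2 in the library labelled replicate 3, and 419 (5.08%) were more than 2-fold below it. Pair by pair, 601 of these genes differed by more than 2-fold between replicates 1 and 2. Against the library labelled replicate 3, 1273 did so for replicate 1 and 1266 for replicate 2. Dync1h1, the heavy chain of the motor that carries cargo toward the cell body, stood at 67.5, 83.3 and 1886 CPM in the 3 RPF libraries and at 191, 227 and 205 CPM in RNA-seq. In the WT pellet it stood at 1807, 1276 and 2129 CPM, and in FMR1 KO fraction 5/6 at 99.7, 72.9 and 61.0 CPM. The library labelled replicate 3 thus lay inside the range of the pellet and far above the other WT fraction 5/6 libraries.

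Map1b, a microtubule-binding protein of growing axons and a much studied FMRP target, behaved likewise. Its RPFs were at 1530, 1821 and 12860 CPM and its RNA at 2152, 2772 and 2479 CPM. The pellet libraries were at 14130, 11730 and 15230 CPM and the FMR1 KO fraction 5/6 libraries at 1875, 2060 and 1951 CPM. With all 3 libraries its log2 occupancy was 1.12 ± 0.85 (SE, adjusted p = 0.294), and without the library labelled replicate 3 it was -0.63 (adjusted p = 0.0624), so neither direction passed the test. For Dync1h1 the same values were 1.70 (adjusted p = 0.274) and -1.54 (adjusted p = 0.000458). The sign of both genes therefore depended on 1 library.

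**Figure D1:**
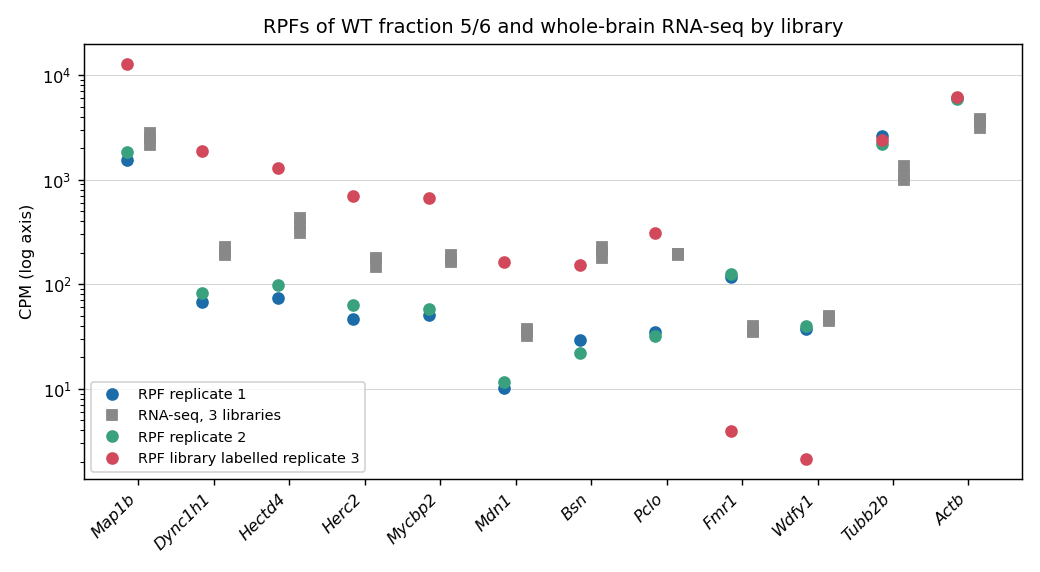
Normalised counts (CPM, log axis) of 12 genes in the 3 WT fraction 5/6 RPF libraries (dots, with the library labelled replicate 3 in red) and the 3 WT RNA-seq libraries (squares). Map1b, Dync1h1 and the genes for very large proteins lie far higher in that library, at 12860 CPM for Map1b and 1886 CPM for Dync1h1, Fmr1 and Wdfy1 lie far lower, at 3.96 and 2.13 CPM, and Tubb2b and Actb lie together with the other libraries.

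A large share of the mRNAs stood at another level in the RPFs of fraction 5/6 than in the RNA. Occupancy was higher than 0 on the log2 scale for 4593 of 16233 genes (28.3%) and lower for 4483 (27.6%) by the quasi-likelihood test of edgeR (adjusted p under 0.05, Benjamini-Hochberg), and 55.9% were called in either direction. Of all genes tested, 8905 (54.9%) were called with no RPF library overlapping any RNA-seq library. Called or not, the 3 RPF libraries all lay above the 3 RNA-seq libraries for 5100 genes (31.4%). They all lay below them for 5431 genes (33.5%), so a lack of overlap in a single gene is common. Without the library labelled replicate 3, 4595 of 16480 genes were higher (27.9%) and 5281 lower (32.0%). In both fits 8476 genes were called, all in the same direction, 600 were called only with that library and 1400 only without it. These p-values measure the spread between preparations of pooled brains. Directions are relative to the TMM normalization, which put the median gene at 0.01, and scaling by library size alone moved that median to -1.22 with 930 genes higher and 9607 lower.

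The levels of RPFs and RNA were related across genes, with a Spearman correlation of 0.862 between the mean log2 CPM of the RPFs and that of the RNA. Occupancy and the RNA level had a correlation of -0.008. Gene groups were described by 50 lists, of which 3 were published lists. The counts of list members are read beside 28.3% of all genes higher and 27.6% lower, and the list medians beside 0.01 over all genes.

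**Figure D2:**
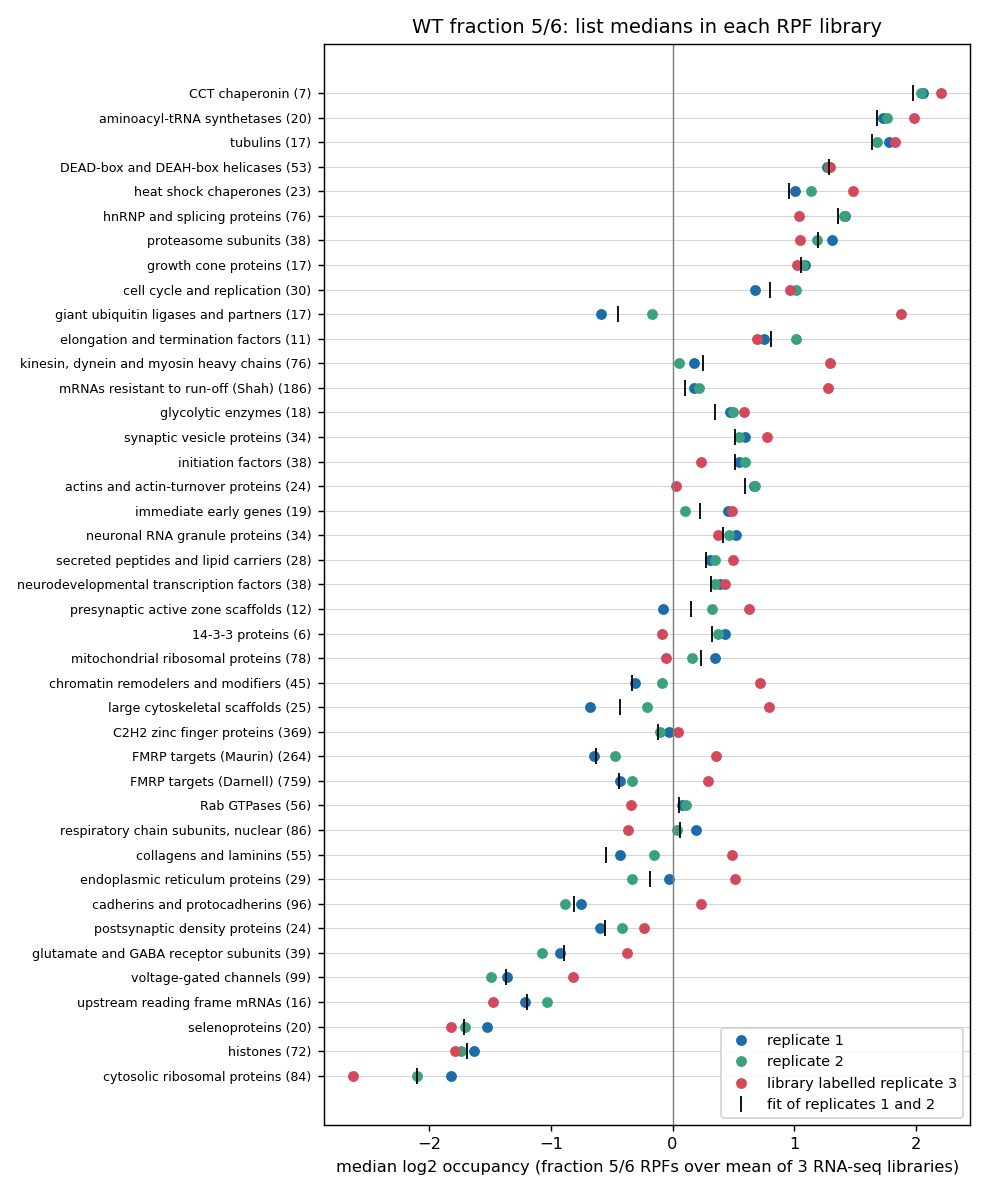
Median log2 occupancy (RPFs over RNA-seq) of 41 gene lists in each WT fraction 5/6 library, with the number of genes tested in brackets and a black tick for the fit of replicates 1 and 2. The CCT chaperonin lies highest, between 2.04 and 2.21 in the 3 libraries, cytosolic ribosomal proteins lie lowest of those shown, between -2.62 and -1.82 (marker lists and the still lower mitochondrially encoded subunits are left out), and the giant ubiquitin ligases spread widest, from -0.59 to 1.88.

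Several groups of the folding, tRNA charging and degradation machinery were occupied above their RNA. All 7 tested genes of the CCT chaperonin, the barrel that folds actin and tubulin, were higher, with a median of 2.08 and a range of 1.90 to 2.53. Cct8 was at 507, 580 and 698 CPM in RPFs and at 96.0, 106 and 106 CPM in RNA (2.53 ± 0.21, adjusted p = 0.000176). Tcp1, the first described subunit, was at 561, 547 and 543 CPM against 156, 142 and 143 CPM (1.90 ± 0.18, adjusted p = 0.000245). For both genes every RPF library lay far above every RNA library. The CCT median was 2.06, 2.04 and 2.21 in the single RPF libraries, 1.94 in FMR1 KO and 2.08 in the low nuclease preparation.

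Aminoacyl-tRNA synthetases, which charge tRNAs with their amino acids, had 17 of 20 genes higher and none lower (median 1.79, lowest member 0.42). Aars, the alanyl enzyme, was at 399, 435 and 601 CPM in RPFs and 95.2, 135 and 127 CPM in RNA (2.00 ± 0.25, adjusted p = 0.000783). Gars, the glycyl enzyme, was at 341, 351 and 403 CPM against 95.9, 116 and 106 CPM (1.78 ± 0.18, adjusted p = 0.000318). The libraries of the 2 kinds did not overlap for either gene. Without the library labelled replicate 3 the count was again 17 higher and none lower.

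Heat shock chaperones had 16 of 23 genes higher and none lower (median 1.35), and 16 higher and 1 lower without the library labelled replicate 3 (median 0.96). Hsp90ab1, the abundant constitutive Hsp90, stood at 3138, 3673 and 4062 CPM in RPFs and at 784, 917 and 855 CPM in RNA (2.08 ± 0.28, adjusted p = 0.00102). Dnaja2, a co-chaperone of Hsp70, stood at 470, 470 and 296 CPM against 57.4, 60.5 and 56.4 CPM (2.82 ± 0.24, adjusted p = 0.00019). Hspa8, the constitutive Hsp70, stood at 688, 617 and 821 CPM against 426, 520 and 515 CPM (0.53, adjusted p = 0.0823). Its libraries did not overlap, but the difference did not pass the test.

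Proteasome subunits, which form the protease that degrades ubiquitylated proteins, had 28 of 38 genes higher and 3 lower (median 1.15). Psmd12, a subunit of the regulatory lid, was at 255, 244 and 164 CPM in RPFs and at 31.8, 31.7 and 31.1 CPM in RNA (2.80 ± 0.22, adjusted p = 0.000139). Psma3, a subunit of the core ring, was lower at 28.5, 33.1 and 19.1 CPM against 83.7, 68.9 and 67.6 CPM (-1.46). In Psma3, 75.6% of the 30-base stretches of the coding sequence occur more than once in the genome, and in the low nuclease preparation its value was 0.50.

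DEAD-box and DEAH-box helicases, which unwind RNA, had 40 of 53 genes higher and 2 lower (median 1.37). Dhx9 was at 358, 507 and 958 CPM in RPFs and 67.9, 82.5 and 88.7 CPM in RNA (2.92 ± 0.40, adjusted p = 0.00109). Ddx5 was higher as well (1.51), whereas Ddx6, a helicase of stored and decaying mRNAs, was at 170, 157 and 182 CPM against 153, 161 and 185 CPM (0.03, adjusted p = 0.904). Its RPF and RNA libraries overlapped fully.

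Among the hnRNP and splicing proteins, 52 of 76 were higher and 11 lower (median 1.31). Hnrnpa2b1, which binds mRNAs that are carried into neurites, was at 1930, 2366 and 1065 CPM in RPFs and at 169, 162 and 193 CPM in RNA (3.35 ± 0.37, adjusted p = 0.000452). Hnrnpu, a nuclear matrix protein, was at 1180, 1466 and 1741 CPM against 176, 198 and 215 CPM (2.89 ± 0.27). Snrpg, a small core protein of the spliceosome, was lower (-3.55), and 82.1% of its stretches have copies elsewhere. Neuronal RNA granule proteins, known components of such granules, had 14 of 34 genes higher and 4 lower (median 0.45), beside 28.3% and 27.6% over all genes. Pabpc1, the cytoplasmic poly(A)-binding protein, was among the lower ones at 125, 133 and 190 CPM against 537, 343 and 307 CPM (-1.42 ± 0.30, adjusted p = 0.00646).

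The translation factors were mixed. Initiation factors had 17 of 38 genes higher and 8 lower (median 0.52), and elongation and termination factors had 7 of 11 higher and 2 lower (median 0.82). Over all genes 28.3% were higher and 27.6% lower. Eif5b, which joins the ribosomal subunits, was at 146, 187 and 227 CPM in RPFs and 33.9, 34.6 and 32.3 CPM in RNA (2.46 ± 0.20, adjusted p = 0.000158). Eif4g2, a scaffold related to eIF4G, was lower at 385, 339 and 258 CPM against 927, 857 and 934 CPM (-1.48 ± 0.24, adjusted p = 0.00218). In the low nuclease preparation Eif4g2 was at 0.38.

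Eef1a1, which brings charged tRNAs to the ribosome, was at 1448, 1526 and 971 CPM in RPFs and at 4630, 2715 and 2270 CPM in RNA (-1.29 ± 0.39, adjusted p = 0.0278). Eef1a1 has copies of 89.0% of its stretches elsewhere in the genome, and its low nuclease value was 0.14. Eef2, which moves the ribosome along, was at 917, 981 and 2198 CPM against 1643, 1376 and 1217 CPM. Only its library labelled replicate 3 lay above the RNA libraries, with an occupancy of -0.06 (adjusted p = 0.916) with that library and -0.64 (adjusted p = 0.0486) without it.

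Tubulins had 13 of 17 genes higher and 2 lower (median 1.70). Tubb5, a broadly expressed β-tubulin, was at 8078, 7432 and 8327 CPM in RPFs and 1435, 1877 and 1632 CPM in RNA (2.26 ± 0.33, adjusted p = 0.00135). Tubb3, the neuron-specific β-tubulin, was at 4031, 3642 and 4256 CPM against 965, 1527 and 1168 CPM (1.70 ± 0.31, adjusted p = 0.00381). Of the α-tubulins, Tuba1a, with copies of 91.4% of its 30-base coding stretches elsewhere in the genome, was at 1728, 1152 and 1582 CPM against 2297, 2767 and 2573 CPM (-0.78, adjusted p = 0.0557), and Tuba1b, with copies of 95.7%, was lower (-1.73). Every RPF library of Tuba1a lay below every RNA library although the test was missed.

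Growth cone proteins had 12 of 17 genes higher and 4 lower (median 1.07). Stmn2, which destabilizes microtubules at the axon tip, was at 2454, 2265 and 1801 CPM in RPFs and 1165, 1151 and 924 CPM in RNA (1.00, adjusted p = 0.0192). Stmn4 was higher too, at 785, 713 and 542 CPM against 139, 169 and 136 CPM (2.19 ± 0.24, adjusted p = 0.000408). Dpysl2 and Dpysl3, which bind tubulin in growing axons, were higher by 1.59 and 1.25. Cd24a, a cell surface protein, was lower at 15.5, 12.3 and 17.1 CPM against 146, 120 and 136 CPM (-3.16 ± 0.18, adjusted p = 8.2e-05).

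Actins and the proteins that turn actin filaments over had 10 of 24 genes higher and 5 lower (median 0.50), beside 28.3% and 27.6% over all genes. Actb was at 6094, 5871 and 6208 CPM in RPFs and at 3612, 3770 and 3146 CPM in RNA. Its libraries did not overlap, with a value of 0.78 (adjusted p = 0.068) with all libraries and 0.70 (adjusted p = 0.0466) without the library labelled replicate 3. Tmsb10, which sequesters actin monomers, was lower (-3.67). Mapt, the axonal microtubule-binding protein tau, was at 2625, 2965 and 2775 CPM against 1163, 1413 and 957 CPM (1.24, adjusted p = 0.00957).

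Voltage-gated channels, which carry the currents of excitable cells, had 55 of 99 genes lower and 10 higher (median -1.17), and glutamate and GABA receptor subunits had 16 of 39 lower and 4 higher (median -0.72). Over all genes 27.6% were lower and 28.3% higher. Grik5, a kainate receptor subunit, was at 11.4, 9.03 and 11.8 CPM in RPFs and at 76.9, 92.5 and 94.9 CPM in RNA (-3.04 ± 0.17, adjusted p = 8.12e-05). Grin2b, an NMDA receptor subunit of the young brain, was at 25.6, 27.1 and 54.9 CPM against 146, 108 and 98.2 CPM (-1.72). Kcnq3, a subunit of the M-current channel, was at 9.18, 29.2 and 7.40 CPM against 76.4 to 83.1 CPM (-2.43). In none of these 3 genes did an RPF library reach an RNA library.

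Postsynaptic density proteins had 10 of 24 genes lower and 3 higher (median -0.44), beside 27.6% lower and 28.3% higher over all genes. Homer2, a scaffold that ties metabotropic glutamate receptors to the density, was at 6.62, 7.39 and 5.17 CPM in RPFs and at 82.2, 70.8 and 90.8 CPM in RNA (-3.69 ± 0.19, adjusted p = 7.75e-05). Camk2a, the calcium-dependent kinase whose mRNA is found in dendrites, was at 311, 313 and 327 CPM against 240, 263 and 270 CPM (0.29 ± 0.17, adjusted p = 0.181). Its RPF libraries all lay above its RNA libraries, but the difference did not pass the test. Adcy1, a calcium-stimulated adenylyl cyclase, was lower by far at 22.4, 22.8 and 26.4 CPM against 230, 287 and 303 CPM (-3.53).

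Synaptic vesicle proteins were mixed, with 15 of 34 genes higher and 6 lower (median 0.55), and 18 higher and 10 lower without the library labelled replicate 3 (median 0.52). Nsf, the ATPase that takes SNARE complexes apart, was at 919, 895 and 775 CPM in RPFs and 181, 249 and 210 CPM in RNA (2.01). Slc17a7, the vesicular glutamate transporter, was at 13.0, 11.5 and 14.5 CPM against 54.1, 64.5 and 69.1 CPM (-2.27). Vamp2, a SNARE of the vesicle membrane, was lower (-0.99). Rab GTPases had 14 of 56 higher and 14 lower, near the 28.3% and 27.6% over all genes, and a median of -0.01 that became 0.05 without the library labelled replicate 3.

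All 11 tested subunits encoded by mitochondrial DNA, which are made by the organelle's own ribosomes, were lower, with values between -10.53 and -6.87, and 10 of the 11 were lower without the library labelled replicate 3. mt-Co1, a catalytic subunit of cytochrome oxidase, was at 0.996, 0.411 and 0.507 CPM in RPFs and at 311, 192 and 180 CPM in RNA (-8.37 ± 0.45, adjusted p = 7.99e-05). These RPF levels are a few reads per library, so the fitted size is imprecise. Nuclear-encoded subunits of the respiratory chain had 29 of 86 genes higher and 26 lower (median -0.01), and the nuclear-encoded mitochondrial ribosomal proteins 24 of 78 higher and 24 lower (median 0.24), near the 28.3% higher and 27.6% lower over all genes. Atp5b, the β subunit of ATP synthase, was at 1873, 1787 and 1776 CPM against 614, 674 and 658 CPM (1.48), whereas Atp5l, a small membrane subunit of the same enzyme, was at 0.427, 0.616 and 0.304 CPM against 69.4, 56.7 and 38.9 CPM (-7.03).

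The counts of these lists without the library labelled replicate 3 are read beside 27.9% of all genes higher and 32.0% lower, where the share lower was 27.6% with it. All 7 CCT genes were again higher (median 1.98). Of the proteasome subunits 30 were then higher and 3 lower (median 1.20), of the helicases 41 and 2 (1.28), and of the hnRNP and splicing proteins 55 and 13 (1.36). Neuronal RNA granule proteins again had 14 higher and 4 lower (0.41), initiation factors had 20 and 8 (0.51), and elongation and termination factors 6 and 3 (0.81). Tubulins had 13 higher and 3 lower (1.64), growth cone proteins 11 and 4 (1.06), and actins and actin-turnover proteins 13 and 6 (0.59). Voltage-gated channels had 9 higher and 61 lower (-1.37), receptor subunits 3 and 20 (-0.89), and postsynaptic density proteins 4 and 13 (-0.55). Nuclear-encoded respiratory subunits had 31 and 28 (median 0.07), mitochondrial ribosomal proteins 31 and 24 (0.23), Rab GTPases 16 and 16, and glycolytic enzymes, described further on, 8 and 2 (0.35).

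Markers of cell types were used to check the tissue. The 9 neuron markers summed to 11119, 11425 and 11671 CPM in RPFs and to 4305 to 4856 CPM in RNA, with 7 higher and none lower. Astrocyte markers had 3 of 9 genes higher and 1 lower, oligodendrocyte lineage markers 2 of 11 higher and 3 lower, microglia markers 1 of 9 higher and 2 lower, and endothelium markers none of 6 in either direction. Over all genes 28.3% were higher and 27.6% lower, and 27.9% and 32.0% without the library labelled replicate 3, and several of these marker counts lie near those shares. Without the library labelled replicate 3, 1 neuron marker was lower and 7 higher, astrocyte markers had 3 higher and 2 lower, oligodendrocyte lineage markers 2 higher and 5 lower (median -0.93, from -0.34), microglia markers none higher and 5 lower (median -0.85, from -0.28), and endothelium markers again none. The 5 erythroid markers summed to 11.9 to 14.2 CPM in RPFs and to 136 to 320 CPM in RNA, and all 5 were lower, 4 of them also without the library labelled replicate 3. Of these 5 genes, 4 have copies of over 10% of their 30-base coding stretches elsewhere in the genome. The range over the RNA libraries came from RNA replicate 1, at 320 CPM against 138 and 136 CPM. In these bulk samples, fewer cells of a type and less RNA per cell cannot be told apart.

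Cytosolic ribosomal proteins, the structural proteins of the ribosome itself, were the lowest large group. Of 84 genes, 75 were lower and 1 was higher, with a median of -2.24, and 74 were lower and 2 higher without the library labelled replicate 3. Their summed level was 6075, 8398 and 3152 CPM in the RPF libraries and 25080, 14053 and 11683 CPM in the RNA libraries. The sum was lower in every RPF library than in every RNA library, and RNA replicate 1 was the highest. Rpsa was at 68.5, 59.9 and 57.0 CPM against 1255, 666 and 556 CPM (-3.75), and Rps2 at 48.8, 40.0 and 37.1 CPM against 1141, 535 and 416 CPM (-4.06). Rpl39, among the smallest of them, was at 0.712, 0.411 and 0.609 CPM against 125, 54.8 and 55.7 CPM (-7.00 ± 0.49, adjusted p = 0.000116). The list's median was -1.82 in FMR1 KO and -0.30 in the low nuclease preparation.

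Ribosomal protein genes have many processed copies in the mouse genome, and a short fragment that matches several places is harder to count than a long RNA-seq read. How reads with several matches were treated is not given in the sources used here. Each coding sequence was therefore cut into stretches of 30 bases, a step of 3 apart, and the copies of each stretch were counted in GRCm38. The stretches below, from the coding strand, show genes with many copies and with 1, with a start codon in capitals where the stretch begins at one.
Rpl39, chrX:37084035-37084064, minus strand, exon 2 of 3, 12 copies: aagcgattcctggccaagaaacaaaagcaa
Ftl1, chr7:45458604-45458633, minus strand, exon 3 of 4, 12 copies: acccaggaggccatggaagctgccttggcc
Atp5l, chr9:44914660-44914689, minus strand, exon 2 of 3, 15 copies: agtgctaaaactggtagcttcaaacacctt
Eef1a1, chr9:78479281-78479310, minus strand, exon 6 of 8, 13 copies: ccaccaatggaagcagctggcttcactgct
Atf4, chr15:80256299-80256328, plus strand, exon 2 of 3, 1 copy: ATGaccgagatgagcttcctgaacagcgaa
Map1b, chr13:99516458-99516487, minus strand, exon 1 of 7, 1 copy: ATGgcgaccgtggtggtggaagccaccgaa
For Rpl39, Ftl1 and Atp5l this is the stretch with most copies, and for Atf4 and Map1b it begins at the start codon.

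Occupancy was low where most of a coding sequence had copies. Of the 859 genes with over 50% of their stretches in 2 or more copies, 550 were lower (64.0%) and 70 higher, with a median of -1.66. The 11586 genes without such a stretch had a median of 0.05, those with up to 10% had 0.27 (2513 genes), and those between 10% and 50% had -0.09 (1246 genes). In the low nuclease preparation, the median of the genes over 50% was -0.42, and with the standard RPFs set against the low nuclease RNA it was -0.62. It was -1.64 in FMR1 KO. The bins were chosen after values had been seen, and the part of read assignment in the low values was not tested.

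**Figure D3:**
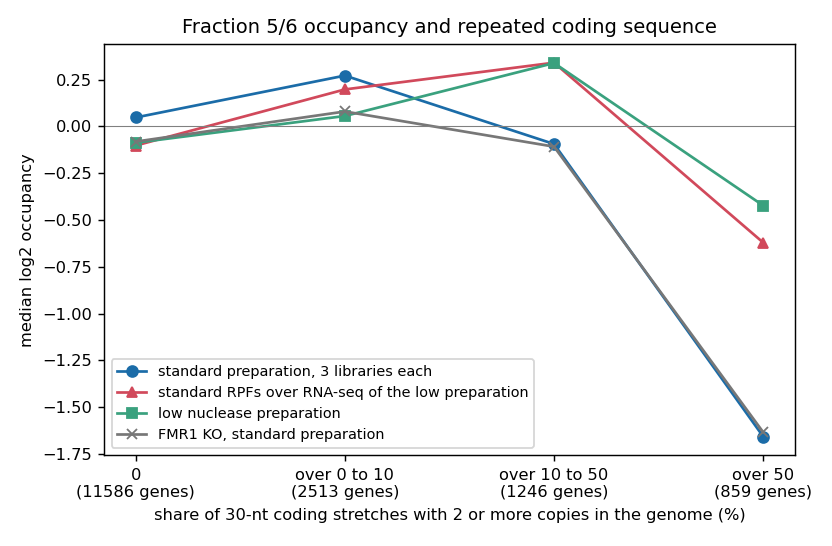
Median log2 occupancy of genes grouped by the share of their 30-base coding stretches that occur 2 or more times in the genome, for the standard preparation, the standard RPFs over low nuclease RNA, the low nuclease preparation and FMR1 KO. The group over 50% lies at -1.66 and -1.64 in the WT and FMR1 KO standard preparations and at -0.42 in the low nuclease preparation.

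The ribosomal proteins fell almost wholly in the group with many copies. Of the 84 genes, 76 had copies of over 50% of their stretches, and 72 of these were lower (median -2.32). The 6 between 10% and 50% had a median of -0.26 with 2 lower. Rpl3l, the striated muscle form of Rpl3, has no such stretch and was at 13.7, 43.7 and 18.7 CPM in RPFs and under 1 CPM in RNA. Another family with many copies was low too. Histones, which package DNA, had 53 of 72 genes lower and 1 higher (median -1.66, and 0.07 in the low nuclease preparation), and 51 of 73 lower without the library labelled replicate 3, with a median of 84.3% of stretches in copies, and the 7 histone genes with few copies had a median of -0.24.

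Single genes differed in this respect. Among the 14-3-3 proteins, adaptor proteins that bind phosphorylated partners, Ywhaq has copies of 99.6% of its stretches and was at 8.68, 8.42 and 6.90 CPM against 209, 192 and 180 CPM (-4.60). Ywhae has none and was at 2366, 2429 and 1477 CPM against 933, 866 and 796 CPM (1.27). Gapdh, the glycolytic enzyme with copies of 94.3% of its stretches, was at 90.8, 69.8 and 70.1 CPM against 638, 688 and 585 CPM (-3.06). Glycolytic enzymes as a list had 9 of 18 genes higher and 2 lower, among the higher ones Pfkm at 365, 397 and 412 CPM against 95.1, 129 and 120 CPM (1.76). Other genes with many copies were higher, among them Ddx5 (53.5% of stretches, 1.51), Hnrnpk (70.6%, 0.94) and Hspd1 (74.1%, 0.78), and Hspa8 with 95.1% was at 0.53.

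Iron storage mRNAs, which carry an iron-responsive element that blocks their translation when iron is scarce, were low. Ftl1, the light chain of ferritin, was at 19.9, 21.1 and 20.4 CPM in RPFs and at 1588, 688 and 518 CPM in RNA (-5.51 ± 0.52, adjusted p = 0.000241), with copies of 88.5% of its stretches. Fth1, the heavy chain, with copies of 19.7%, was at 151, 164 and 91.5 CPM against 825, 401 and 288 CPM (-1.90 ± 0.45, adjusted p = 0.0108). Both were below the RNA in each library, and their low nuclease values were -3.66 and -1.03.

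The mRNAs known to be held back by upstream reading frames, short frames that catch ribosomes before the main one, were mostly low. Of 16 entries, 11 were lower and none higher (median -1.26), or 11 and 1 without the library labelled replicate 3, and of the 10 with few copies 6 were lower (median -0.94). Atf4, the transcription factor of the integrated stress response, whose start is printed above, was at 15.4, 12.5 and 10.5 CPM in RPFs and at 62.7, 60.4 and 56.7 CPM in RNA (-2.23 ± 0.17, adjusted p = 0.00014). Every RPF library lay far below every RNA library. Atf4 was at -2.12 in FMR1 KO and at -0.65 in the low nuclease preparation.

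Selenoproteins were mostly low, and more so where their special codon lies early. These enzymes read an in-frame TGA, elsewhere a stop codon, as selenocysteine with the help of an element in the 3' untranslated region. Of 20 genes tested, 14 were lower and 2 higher (median -1.64), or 15 and 2 without the library labelled replicate 3. Windows around the first in-frame TGA, in capitals, are shown for 5 of them from early to late in the frame, on the coding strand of GRCm38.
Sephs2, chr7:127273716-127273745, minus strand, codon 63 of 452: ggcatgaagggcTGAggctgcaaggtcccc
Selenop, chr15:3274836-3274865, plus strand, codon 59 of 380: cttcaagccagcTGAtacttgtgtcttctg
Gpx1, chr9:108339439-108339468, plus strand, codon 47 of 201: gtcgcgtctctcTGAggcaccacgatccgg
Gpx4, chr10:80054725-80054754, plus strand, codon 129 of 253: gtggcctcgcaaTGAggcaaaactgacgta
Selenoi, chr5:30266952-30266981, plus strand, codon 388 of 398: ccaaactcagatTGActaggaatggaagaa

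The 12 genes with the TGA within the first 80% of the coding sequence had a median occupancy of -2.24 and a range of -3.97 to -1.30. The 8 with a later TGA had a median of 0.20 and a range of -2.40 to 1.60. Without the library labelled replicate 3 the 2 medians were -2.25 and -0.04. Selenow, a small redox protein with its TGA at codon 13 of 88, was at 28.5, 20.3 and 19.2 CPM in RPFs and at 486, 325 and 253 CPM in RNA (-3.97 ± 0.33, adjusted p = 0.000171). Gpx4, which reduces lipid peroxides, was at 9.96, 10.9 and 7.71 CPM against 101, 83.6 and 78.1 CPM (-3.22 ± 0.19, adjusted p = 8.6e-05). It has copies of 45.9% of its stretches. Selenop, the selenium carrier with 10 in-frame TGA codons, was at -2.65, Gpx1 at -2.27 and Sephs2, which makes the selenium donor, at -1.57.

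At the other end, Txnrd3, a thioredoxin reductase whose TGA is the penultimate codon, was at 29.9, 35.1 and 30.5 CPM against 10.3, 11.1 and 9.93 CPM (1.60 ± 0.13, adjusted p = 0.000172), and Txnrd2 was at 1.24. Selenoi, with the TGA near its end, was at -0.66 (adjusted p = 0.138), and at -1.25 without the library labelled replicate 3. Selenok was the lowest of the late group at -2.40, with copies of 78.8% of its stretches. Across the 20 genes, the rank correlation of position and occupancy was 0.755, 0.755 without the library labelled replicate 3, 0.715 in FMR1 KO and 0.535 in the low nuclease preparation, where the 2 groups had medians of -0.86 and 0.07. The split at 80% was chosen after the values were seen, the genes share the same libraries, and no test was made. Coding length differed as well. The late Txnrd1, Txnrd2, Txnrd3 and Selenoo have 527 to 667 codons, and the late but low Selenok and Msrb1 have 94 and 116. Selenos, late with 190 codons, was at 0.06, and the early genes range from 88 (Selenow) to 557 codons (Selenon, -1.43). Over all genes, the shortest bin of coding length had a median of -0.74. The part of length was not tested.

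**Figure D4:**
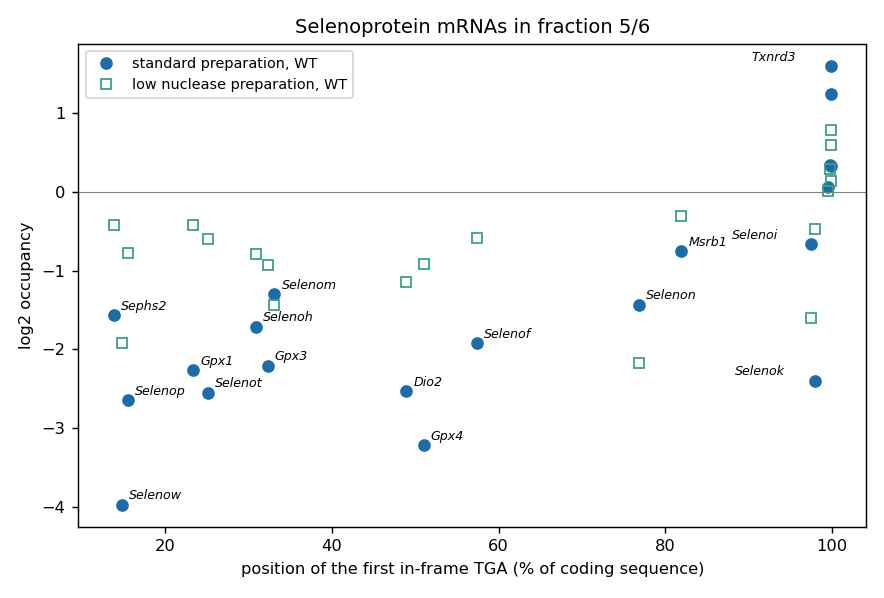
Position of the first in-frame TGA (percent of the coding sequence before it) and log2 occupancy of the 20 selenoprotein genes, for the standard preparation (filled) and the low nuclease preparation (open). Filled points before 80% lie between -3.97 and -1.30, and those after it lie between -2.40 and 1.60.

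The mRNAs of very large proteins depended on the library labelled replicate 3. Giant ubiquitin ligases and partners, with a median coding sequence of 10804 bases, had a median occupancy of -0.59 and -0.17 in replicates 1 and 2 and of 1.88 in the library labelled replicate 3. With all 3, 2 of 17 were higher and none lower (median 0.83), and without that library 1 was higher and 9 lower (median -0.45), beside a median of -0.33 in FMR1 KO. Hectd4 was at 74.4, 97.5 and 1290 CPM in RPFs and at 308, 434 and 365 CPM in RNA, and at 1389, 1154 and 1437 CPM in the pellet. Its value without the library was -2.18 (adjusted p = 0.000431).

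Other lists of long mRNAs had more genes lower without it, as did all genes, of which 28.3% were higher and 27.6% lower with it and 27.9% and 32.0% without it. Kinesin, dynein and myosin heavy chains went from 23 of 76 higher and 4 lower (median 0.70) to 21 higher and 19 lower (median 0.25), which is no larger share than over all genes. Large cytoskeletal scaffolds went from a median of 0.15 to -0.43, and chromatin remodelers and modifiers from 0.21 with 6 lower to -0.34 with 17 lower. Cadherins and protocadherins, adhesion proteins of cell contacts, went from 11 of 96 lower to 57 lower (medians -0.34 and -0.81), but 37 of them share exons with other members of the list, so largely the same reads are counted many times. These 37 went from 2 lower to 36 lower, and the other 59 from 9 to 21 lower (medians -0.22 and -0.74). Presynaptic active zone scaffolds went from none of 12 lower to 4 lower, near the share over all genes, with Bsn at 29.1, 22.0 and 152 CPM in RPFs against 178, 225 and 208 CPM in RNA (-1.59, adjusted p = 0.0997, and -3.05, adjusted p = 0.000135, without it). Pclo, the partner scaffold of Bsn, was at 34.9, 32.2 and 313 CPM against 194, 195 and 191 CPM (-0.62, adjusted p = 0.566, and -2.59, adjusted p = 7.79e-05, without it).

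Some large proteins were called in the same direction with and without it. Dst, a crosslinker of the cytoskeleton, was lower with all libraries at 16.2, 20.5 and 50.8 CPM against 110, 96.6 and 93.0 CPM (-1.78, adjusted p = 0.0112, and -2.52 without that library). Dnmt1, which maintains DNA methylation, was higher at 1177, 1527 and 1392 CPM against 52.7, 75.4 and 75.1 CPM (4.33 ± 0.29, adjusted p = 0.000102), with 4.24 without that library, 3.36 in FMR1 KO and 0.34 in the low nuclease preparation. Ubr4 was higher at 2772, 1220 and 2103 CPM against 170, 215 and 202 CPM (3.37 ± 0.38, adjusted p = 0.000491), with 3.30 without that library and -2.75 in the low nuclease preparation. In FMR1 KO its RPFs spread over 3035, 229 and 85.1 CPM against 196 to 225 CPM in RNA (2.36, adjusted p = 0.108), so that value rests on 1 library.

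Coding length was related to occupancy with a rank correlation of 0.26 across 16206 genes, and of 0.163 without the library labelled replicate 3. From the shortest to the longest bin of 5, the medians were -0.74, -0.12, 0.12, 0.36 and 0.30. In the longest bin, from 2529 bases upward, the single libraries had medians of -0.09, 0.02 and, for the library labelled replicate 3, 0.61, and the FMR1 KO fraction 5/6 libraries had -0.11, -0.02 and -0.19. In the shortest bin, up to 741 bases, all 3 libraries were low with -0.57, -0.74 and -0.95. Among genes with at most 10% of stretches in copies, the correlation was 0.22 and the shortest bin had a median of -0.52. In the low nuclease preparation the correlation was -0.048.

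**Figure D5:**
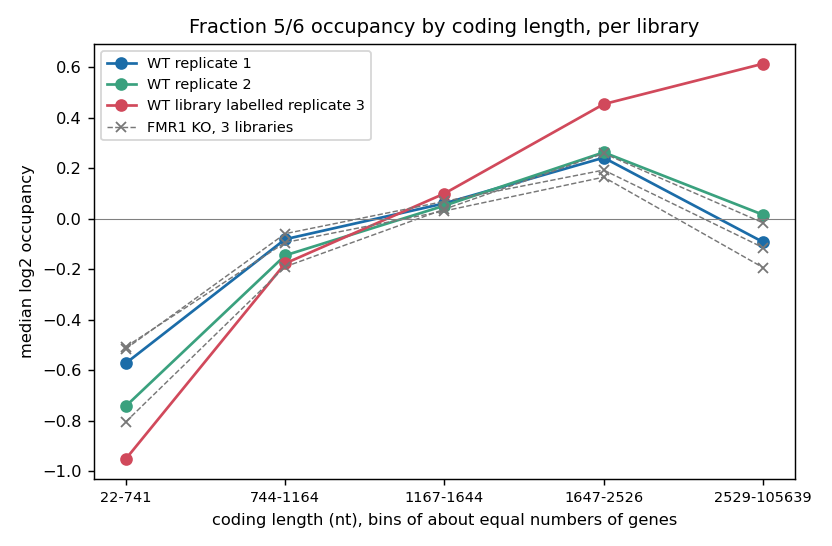
Median log2 occupancy in 5 bins of coding length for each WT fraction 5/6 library (solid) and each FMR1 KO fraction 5/6 library (dashed). The 6 libraries lie between -0.95 and -0.51 in the shortest bin, and in the longest bin the library labelled replicate 3 stands at 0.61 while the other 5 lie between -0.19 and 0.02.

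Fmr1 itself was at 118 and 124 CPM in replicates 1 and 2 and at 3.96 CPM in the library labelled replicate 3, against 36.0, 35.3 and 39.7 CPM in RNA. The value was 1.14 ± 0.96 (adjusted p = 0.344) with that library and 1.64 without it, which is given as a description since the library was set aside for its Fmr1 counts. In the WT pellet Fmr1 was at 96.2, 83.7 and 95.1 CPM. In FMR1 KO, the remaining transcript was at 8.29, 8.40 and 8.96 CPM in fraction 5/6 and at 9.46, 10.1 and 10.3 CPM in RNA.

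The 3 published lists are read beside all genes, of which 28.3% were higher and 27.6% lower, and 27.9% and 32.0% without the library labelled replicate 3. FMRP targets of Darnell had 166 of 759 genes higher and 225 lower (median 0.01), and 154 higher and 359 lower without the library labelled replicate 3 (median -0.44). FMRP targets of Maurin had 42 of 264 higher and 67 lower (median 0.01), and 44 higher and 138 lower without it (median -0.63). Scaled by library size alone, the medians of both lists relative to all genes changed side. The mRNAs of Shah, whose ribosomes resisted run-off, had 75 of 186 higher and 11 lower (median 0.65), and 71 higher and 64 lower without it (median 0.10). The same medians in FMR1 KO were -0.45, -0.57 and 0.34. In the low nuclease preparation they were -0.73, -0.93 and -0.80, and the Shah list there had 45 genes higher and 92 lower.

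Pellet and fraction 5/6 were compared directly, which the labels allow within the WT standard preparation. Of 13135 genes, 3 were called (0.0228%) and 820 had an unadjusted p under 0.05 (6.24%), whereas DESeq2 called 90. Without the library labelled replicate 3, 1262 of 13319 genes were called (9.48%), 1027 higher in the pellet (7.71%) and 235 higher in fraction 5/6 (1.76%). In that fit, 15 of 17 giant ubiquitin ligases were higher in the pellet and none lower (median 2.16), as were 25 of 66 motor heavy chains (median 0.90), 26 of 45 chromatin genes (median 0.93) and 12 of 25 scaffolds (median 0.90). Of the published lists, 228 of 758 Darnell genes (median 0.52), 100 of 264 Maurin genes (median 0.75) and 42 of 185 Shah genes (median 0.98) were higher in the pellet and none lower, beside a median of -0.01 over all genes.

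The 3 genes called with all libraries were single large differences. The contrast called no gene with the replicate block, without pellet replicate 1 or 3, without fraction 5/6 replicate 1, or without replicate number 1 or 2. Sall4, a zinc finger factor of stem cells, was at 0.498, 1.03 and 0.811 CPM in fraction 5/6 and at 24300, 20920 and 15160 CPM in the pellet. Hmx2, a homeobox factor, was at 717, 992 and 474 CPM in fraction 5/6 and at 0.667, 1.02 and 0.124 CPM in the pellet. Zc3h3 was at 1.99, 2.67 and 2.43 CPM in fraction 5/6 and at 31.7, 26.3 and 40.3 CPM in the pellet. The libraries of the 2 fractions did not overlap in any of them.

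The FMR1 KO libraries gave an independent reading of fraction 5/6, since they share no library with WT. There, 10174 of 16191 genes were called (62.8%), 4811 higher (29.7%) and 5363 lower (33.1%). Of the genes higher in WT, 3991 were higher in FMR1 KO, which is 86.9% of the WT list and 83.0% of the FMR1 KO list, and 22 were called in the opposite direction. Of the genes lower in WT, 3917 were lower in FMR1 KO, 87.4% and 73.0% of the lists, and 8 were opposite. The difference between the genotypes in occupancy was called for 5 of 16445 genes (0.0304%), with 844 at an unadjusted p under 0.05 (5.13%) and 53 called by DESeq2. Without the library labelled replicate 3 it was called for 38 (0.23%).

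The low nuclease preparation differed from the standard one in MgCl2, in the source and amount of RNase I, in the temperature of digestion and in how the monosomes were recovered (from gradient fractions, and in the standard preparation by pelleting), and these cannot be told apart. One of its RNA libraries, replicate 2, had 9.22% of its counts on Cdk8 as RPF libraries do, and was left out of the values given here. Of 16172 genes, 10001 were called (61.8%). Of the genes higher in the standard preparation, 3119 were higher in the low one (67.9% and 64.6% of the lists) and 197 lower, and of those lower, 2826 were lower (63.0% and 54.6%) and 203 higher. The median of 13 of the 50 lists was on the other side of the all-gene median.

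Several lists of secreted and membrane proteins had lower medians there. Cadherins and protocadherins were at -1.74 (-1.79 for the 59 that share no exons within the list), collagens and laminins at -1.90, endoplasmic reticulum proteins at -0.79, and secreted peptides and lipid carriers at -0.76, beside -0.34, -0.04, -0.05 and 0.40 in the standard preparation. Without the library labelled replicate 3 the standard medians were -0.81, -0.55, -0.18 and 0.28, so part of the gap for the first 2 lists rests on that library. When the standard RPFs were set against the low nuclease RNA in place of their own, the medians were -2.59, -2.34, -1.48 and -1.72. Canx, a chaperone of the endoplasmic reticulum membrane, was at 38.9, 41.9 and 84.0 CPM in the standard RPFs against 40.9, 25.0 and 28.9 CPM in their own RNA (0.79, adjusted p = 0.0878), and at -1.12 in the low nuclease preparation. Its standard value without the library labelled replicate 3 was 0.29 (adjusted p = 0.288). The change of reference RNA alone thus moved these lists by over 1 on the log2 scale, while the CCT chaperonin stayed above 2 in each case.

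A small number of genes took a large part of the RPFs with hardly any RNA. The 218 genes called more than 6 higher on the log2 scale held 31.4%, 48.5% and 27.5% of the RPF counts without Cdk8 and 0.257% to 0.276% of the RNA counts. Their median RNA level was 0.319 CPM, and 73 of them (33.5%) had over 80% of their summed RPF level in 1 library. Filip1l was at 59450, 57310 and 45060 CPM in RPFs and at 7.75, 4.22 and 34.4 CPM in RNA (11.76 ± 1.30, adjusted p = 0.000443). Cmss1 had nearly the same RPF levels of 59460, 57320 and 45070 CPM. The spans of the 2 genes overlap on chromosome 16, from 57353093 to 57573126 and from 57302000 to 57606864, but they share no annotated exon. Why their levels match was not tested. Both genes enter the shares above, so the same reads may be counted there more than once.

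The spread between libraries of such genes was wide. Itga9, an integrin subunit, was at 4139, 26070 and 19890 CPM against 1.77 to 2.42 CPM in RNA (13.00 ± 1.09, adjusted p = 0.000173). Fam83h was at 3.06, 31110 and 18590 CPM against 2.10 to 2.58 CPM (12.74 ± 2.96, adjusted p = 0.00997). Pou3f2, a transcription factor of cortical neurons, was at 13570, 25600 and 18110 CPM against 37.8, 43.2 and 47.5 CPM (8.79 ± 0.58, adjusted p = 9.8e-05), and at 0.47 in the low nuclease preparation.

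The deposited peak lists, which give the position and height of local maxima of RPF coverage on transcripts, seldom held these genes. Of the 50 genes called more than 6 higher with at least 1000 counts in every RPF library, 10, 4 and 7 had a peak listed in the 3 libraries (8.0% to 20.0%). Of the 221 genes with the same counts and an occupancy within 1 of 0, 198, 196 and 193 had one (89.6%, 88.7% and 87.3%). Where a gene was more than 2 lower and still had at least 100 counts in each library, as 87 genes did, a peak was listed for 71, 52 and 64 of them (81.6%, 59.8% and 73.6%). Of the 3177 genes within 1 of 0 at that count limit, 65.8%, 36.5% and 53.3% had one. Among the lower genes with a peak listed, the tallest peak was a larger part of the counts, with medians of 7.50%, 11.0% and 7.65% against 2.77%, 4.51% and 2.56% for the genes within 1 of 0 that had a peak listed. The peak lists were made from the same reads, and the classes were formed after values had been seen.

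Some mRNAs with at least 20 CPM in RNA were far lower in the RPFs. Ccnb1ip1 was at 14.6, 41.3 and 9.53 CPM in RPFs and at 17000, 7072 and 6317 CPM in RNA (-8.87 ± 0.96, adjusted p = 0.000402). Cdr1, a gene of the X chromosome with copies of 57.3% of its stretches, was at 0.356, 1.23 and 0.203 CPM against 456, 222 and 255 CPM (-9.29 ± 0.71, adjusted p = 0.000135). Igf2, a secreted growth factor, was at 5.12, 5.13 and 5.68 CPM against 222, 110 and 131 CPM (-4.87). In Ccnb1ip1, Cdr1 and Igf2 alike, RNA replicate 1 was the highest of the RNA libraries.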

How the data were processed

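RPFs of fraction 5/6 and RNA-seq of whole brain homogenate were taken as counts and, for RPFs, peak heights. The authors made the count values, deposited as whole reads per gene without normalization, with Cutadapt 2.10, Bowtie2 2.3.5 (removal of ribosomal and other non-coding RNA), STAR 2.7.8a on GRCm38, Picard, SAMtools 1.19.2 and featureCounts 2.2.0. Peak heights, deposited as signal, were called by the authors per sample on RPF coverage and are not scaled between libraries.

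Counts were analysed with edgeR 4.0.16, limma 3.58.1 and R 4.3.3. Cdk8 and genes of non-protein-coding biotypes (GENCODE M21) were left out. Genes were kept by filterByExpr, scaled by TMM and compared by the quasi-likelihood test, with p-values adjusted after Benjamini and Hochberg over all genes tested and called under 0.05. Occupancy is the log2 of RPFs over RNA-seq, with its SE from the test. Medians of single libraries used log2 CPM with a prior count of 2 over the mean of the RNA libraries. Replicate numbers were not taken as pairs. Scripts were tested on simulated data for the WT comparison, in which only the genes named next were changed. Of 100 genes changed 2-fold 7% were recovered, and of 100 changed 4-fold 72%. A gene that was not called may therefore still differ. Libraries of a group differed by more than counting error. DESeq2 1.42.0 and other scalings, filters, references and leaving out each library were alternatives. Python 3.11.15, pandas 2.3.3, numpy 2.4.6, scipy 1.17.1, numba 0.67.0 and matplotlib 3.10.9 were used.

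The comparison, its members and the gene lists were chosen with earlier results of these data known. Named genes were the 10 largest called rises and falls without overlap (rises from 10 CPM in RPFs and 1 CPM in RNA, falls from 20 CPM in RNA), the 10 highest RPKM in RPFs, the extreme and the most abundant members of each list, 12 genes of prior interest, and the 5 largest changes of the pellet and genotype contrasts and of the library labelled replicate 3. Genes outside this rule were chosen after their values were seen: Gpx1, Selenoi, Selenok, Selenop, Sephs2 and Txnrd2. Some named genes are not reported here.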

Additional observations from a re-analysis of the deposited data

Results flagged for a closer look

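The occupancy of 5 genes differed between FMR1 KO and WT by the interaction term of the quasi-likelihood model of edgeR, out of 16445 genes tested, and these differences set them apart. Sdk2, an adhesion protein of synaptic layers, differed by -3.51 ± 0.46 (SE, adjusted p = 0.0354), and by -3.26 (adjusted p = 0.018) without the library labelled WT fraction 5/6 replicate 3. For the value Sdk2, FMR1 KO minus WT occupancy, the call was lost by library size alone (adjusted p = 0.0655), with at least 10 counts in every library (0.196), by glmTreat (0.132), with the replicate block (0.145), with that block and without the WT library just named (0.0912), without replicate number 2 (0.536) or 3 (0.207), without FMR1 KO fraction 5/6 replicate 1 (0.0881) or 2 (0.156), and without any 1 RNA library of either genotype (0.0525 to 0.215). The difference lay between -4.06 and -3.02 in all fits. Its RPFs were at 30.0, 67.5 and 74.9 CPM in WT and at 4.57, 3.55 and 4.68 CPM in FMR1 KO, and its RNA at 10.4 to 13.8 CPM in WT and at 7.45 to 12.8 CPM in FMR1 KO. The RNA of the genotypes overlapped and the RPFs did not.

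The other 4 genes lie on the Y chromosome. Ddx3y differed by 8.42, Uty by 8.57, Kdm5d by 9.94 and Eif2s3y by 13.08. Their RPFs overlapped or lay close between the genotypes, as in Ddx3y at 60.3, 71.4 and 51.7 CPM in WT and at 56.4, 69.3 and 43.1 CPM in FMR1 KO. The difference lay in the RNA, where Ddx3y was at 21.6, 20.6 and 21.0 CPM in WT and at 0.055, 0.0792 and 0.0347 CPM in FMR1 KO. Eif2s3y had 0 counts in all 3 FMR1 KO RNA libraries, so its fitted value is not a bound. The RPF and RNA libraries of FMR1 KO were therefore unlike in these transcripts, and the WT libraries were not.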

How the results depend on the processing

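The count of genes with a changed occupancy (9076) stayed within 1.5 times under every alternative but glmTreat, which tests against a 2-fold change and called 3830. Leaving out 1 library or 1 replicate number gave 6066 to 9876. Deviations of WT RPFs and RNA with the same replicate number correlated at 0.07, -0.01 and 0.098. Those with different numbers correlated at -0.097 to 0.032. Such weak correlations do not settle whether the numbers pair the samples. Adding the replicate block left 7915 genes called, 7633 without the library labelled replicate 3, 9284 in FMR1 KO, 4 in the genotype contrast and 0 in the pellet contrast.

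The pellet contrast (3 genes) gave 8 by library size alone, 90 by DESeq2, 1 with at least 10 counts in every library and 0 to 1262 with 1 library or number left out, the highest when the WT fraction 5/6 library labelled replicate 3 was left out. The genotype contrast (5 genes) gave 53 by DESeq2, 0 with at least 10 counts, 4 to 38 with 1 library or number left out, and 20 without that library plus the replicate block, a fit added after seeing the data. Why these counts differ was not tested.

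The rank correlation of coding length and occupancy (0.26) was 0.02 with low nuclease RNA, 0.053 with that RNA without its replicate 2, -0.085 in the low nuclease preparation and -0.048 there without RNA replicate 2. The 2 fits without that RNA library were added after seeing the data.

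Single genes turned direction between the preparations, with the cause not tested. In the low nuclease preparation, and there without RNA replicate 2, Slc10a4 was at -1.99 and -1.98, Plec at -2.19 and -2.05, Unc13a at -1.35 and -1.22, Pcdh17 at -2.39 and -2.14, Ubr4 at -2.86 and -2.75, Adamts14 at -1.83 and -1.73, Igsf11 at -1.34 and -1.31, and Limd2 at -0.58 and -0.67. Ppfia3 was at -0.73 in the first and Psma3 at 0.50 in the second, and Scg2 was at -1.83 against low nuclease RNA. RPF depth limits genes near 1 CPM, where a library holds few reads.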
